A study of Homo sapiens with 6 samples.

Results

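Mucosal defence genes encode the secreted and membrane proteins with which an epithelium limits microbes at its surface. The 10 genes described here are LCN2, SLPI, PI3, DUOX2, DUOXA2, NOS2, PIGR, SAA1, SAA2 and DEFB1. They were taken by name, and each was read through every probe set whose annotation gives that gene alone. Of the 10 genes, 8 had such a probe set, with 10 probe sets in all among the 54675 of the array. SAA1 and SAA2 had none of their own, because 2 probe sets carry both names together. LCN2 stayed under the floor for low signals on all 6 arrays, so 7 genes were measured, of 14623 measured genes among 19775.

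The cells were Caco-2, a human colorectal adenocarcinoma line that forms a polarised monolayer resembling small-intestinal enterocytes. They were grown for 14 days on a porous membrane and then placed above THP-1 cells, a human monocytic leukaemia line that had been exposed to phorbol myristate acetate, a differentiating agent, for 4 days. Caco-2 RNA was hybridised at 0, 1, 3, 6, 24 and 48 h of coculture, with 1 array per time. The 0 h cells had the same 14 days of culture. None of the 6 arrays carries RNA from a Caco-2 monoculture at 1 to 48 h. A difference from 0 h can thus not be assigned to coculture rather than to time alone, and this was not tested. Both cell types are single lines, and nothing in the labels describes separate cultures.

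In the gut, epithelial defence works by several routes. Cells secrete peptides that damage microbes, proteins that withhold iron, and inhibitors that restrain neutrophil proteases. They also make oxidants at the apical membrane and carry dimeric IgA from the tissue side into the lumen. Many of these genes are known targets of NF-kB, C/EBP and STAT factors and respond to cytokines of macrophages and T cells.

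The values are MAS5 signals, a linear measure of probe brightness. Signals under the floor of 16.2, the median of all values, were raised to it before ratios were taken, and a gene was counted as higher or lower when it changed 2-fold or more against 0 h with the brighter array above the floor. Without replicates no test could be made, and every comparison shares the single 0 h array. The spread between different probe sets of the same gene, taken at like signal, is the error given beside log2 ratios (robust SD, called probe-set SD here). It leaves out variation between cultures. In a cell population, fewer cells of a type and less RNA per cell cannot be told apart.

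The arrays were alike in scale, with trimmed means of 93.8 on each and medians of 15.3 to 16.7. The 3'/5' ratio of the ACTB control probes, which reports RNA integrity and labelling, was 18.0 to 37.0 at the coculture times, against 51.2 at 0 h; its part in the differences below was not tested. The same ratio for GAPDH was 3.54 to 4.72 at the coculture times, against 4.69 at 0 h. All 11 enterocyte-like marker genes with a probe set of their own were above the floor on every array. Of 14 macrophage markers, 13 had a probe set of their own, and 5 to 8 of these were above the floor on an array. PTPRC, SPI1 and MRC1 were under the floor on all 6 arrays, while CD14, ITGAM, LAPTM5, AIF1 and LYZ were above it on all 6. AIF1 had signals of 43.0 to 229 at the coculture times, against 360 at 0 h. LYZ went the other way late, with 366 at 24 h and 412 at 48 h, against 247 at 0 h. By the 2-fold rule stated above, 1, 2, 2, 1 and 1 of 10 measured macrophage markers were lower at 1, 3, 6, 24 and 48 h. None was higher. The summed signal of the 13 was 539 to 762 at the coculture times, against 887 at 0 h, and its part in the differences below was not tested.

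Among the secreted antiproteases, PI3 passed 2-fold at 6 h and SLPI at no time. PI3 encodes elafin, a small inhibitor of neutrophil elastase that is also bound to matrix by transglutaminase. Its probe set 41469_at, the one used for the gene in counts, had signals of 89.1 (0 h), 148 (1 h), 172 (3 h), 186 (6 h), 134 (24 h) and 76.7 (48 h). The arrays from 1 to 24 h were all above the 0 h array, the highest was 6 h, and the 48 h array was below 0 h. The second probe set, 203691_at, had 53.9, 123, 145, 163, 107 and 50.4 at the same times and followed the same order of levels.

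On 41469_at PI3 was 2.09-fold higher at 6 h, a log2 ratio of 1.06 against a probe-set SD of 0.45. The log2 ratios at 1, 3 and 24 h were 0.73, 0.95 and 0.59, under 2-fold. On 203691_at the log2 ratio was 1.19 (1 h), 1.43 (3 h) and 1.60 (6 h), all past 2-fold, and 1.00 at 24 h, a 1.99-fold difference. The probe sets thus gave the same direction and different sizes, from 2.09-fold to 3.03-fold at 6 h. Of all measured genes, 3.70% had a log2 ratio at 6 h at or above that of PI3 on 41469_at. Adding the floor value to each signal as a pseudocount brought its log2 ratio at 6 h to 0.94, and against the 1 h array in place of 0 h it was 0.33, both under 2-fold.

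**Figure D1:**
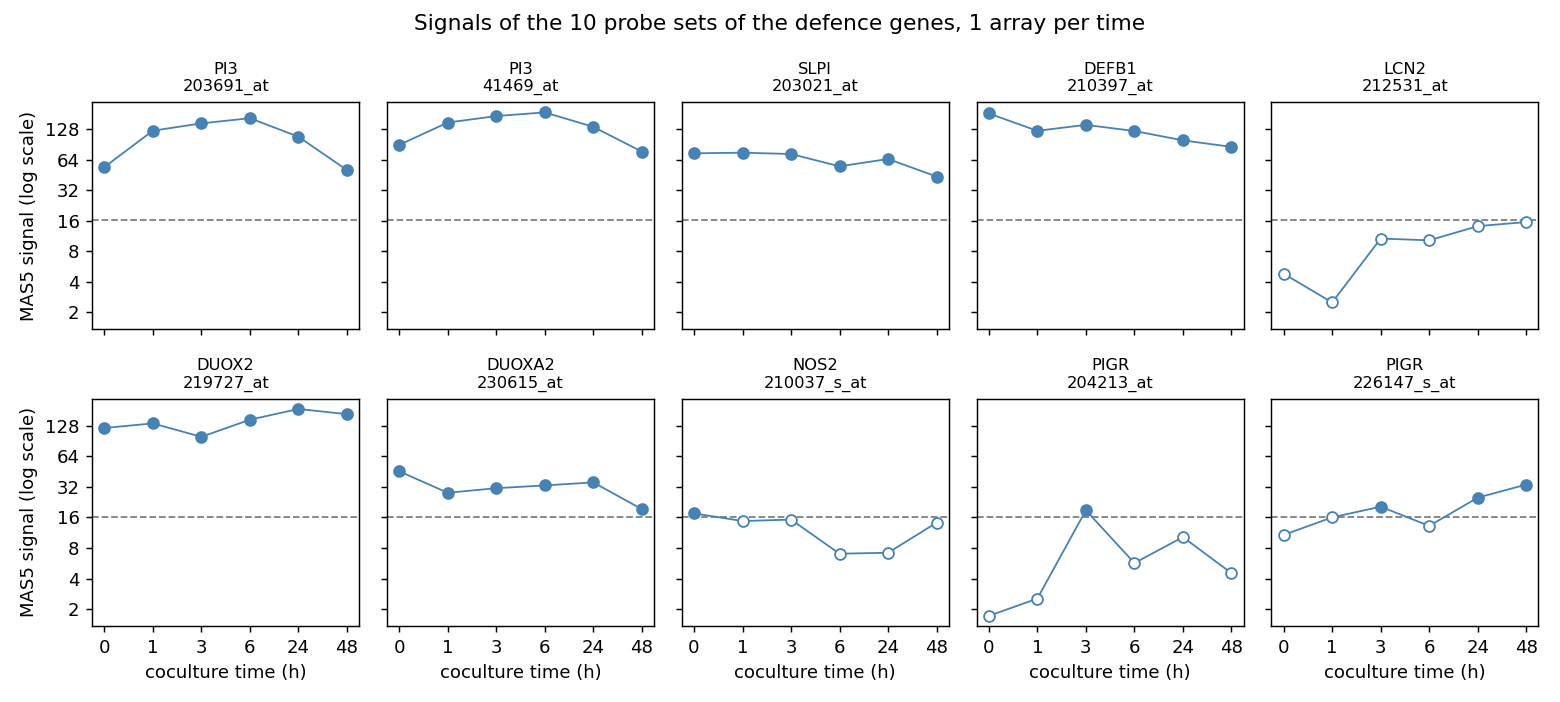
MAS5 signal on a log scale (vertical) at each coculture time in hours (horizontal, not to scale) for the 10 probe sets of the 8 defence genes that had one, 1 array per time. Filled points are above the floor of 16.2 (dashed line) and open points under it; both PI3 probe sets peak at 6 h, DEFB1 is highest at 0 h, and LCN2 is under the floor throughout.

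SLPI, the secretory leukocyte protease inhibitor, is a relative of elafin with a like fold, and its gene lies on the same chromosome. Its signals were 73.7 (0 h), 74.8 (1 h), 72.6 (3 h), 54.9 (6 h), 64.8 (24 h) and 43.5 (48 h). The first 3 arrays differed by less than the probe-set SD, and the 48 h array was the lowest. Its log2 ratio at 48 h was -0.76, with a probe-set SD of 0.47, and did not reach 2-fold. The log2 ratio of PI3 minus that of SLPI was 1.49 at 6 h, against a combined probe-set SD of 0.67, and 0.54 at 48 h, against 0.66. This difference between genes does not change when each array is scaled by 1 factor. Quantile normalization, which is not such a scaling, gave log2 ratios at 6 h of 1.09 for PI3 and -0.37 for SLPI.

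DEFB1 encodes beta-defensin 1, an antimicrobial peptide that many epithelia make without a stimulus. Its signals were 182 (0 h), 123 (1 h), 140 (3 h), 122 (6 h), 98.9 (24 h) and 85.3 (48 h). All 5 coculture arrays were below the 0 h array, and the lowest were 24 and 48 h. DEFB1 was 2.13-fold lower at 48 h, a log2 ratio of -1.09 with a probe-set SD of 0.47, and the log2 ratio at 24 h was -0.88, under 2-fold. Of all measured genes, 4.76% had a log2 ratio at or below that of DEFB1 at 48 h. Against the 1 h array in place of 0 h, its log2 ratio at 48 h was -0.53, and with a pseudocount it was -0.97, so the 2-fold call was lost under both.

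LCN2 encodes lipocalin 2, which binds the siderophores that bacteria use to take up iron. Its signals were 4.81 (0 h), 2.51 (1 h), 10.7 (3 h), 10.3 (6 h), 14.1 (24 h) and 15.5 (48 h). Every array was under the floor, so no fold is given, although the 4 later arrays read higher than the first 2. With the floor lowered to 6.38, the 30th percentile of all values, LCN2 had lower bounds of 1.15 at 24 h and 1.28 at 48 h for its log2 ratio, both past 2-fold.

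The dual oxidase pair is shown with its sequence because the genes DUOX2 and DUOXA2 lie head to head. DUOX2 is the oxidase that makes hydrogen peroxide at the apical surface, and DUOXA2 is the maturation factor that it needs to leave the endoplasmic reticulum. In RefSeq (GRCh38.p14) DUOX2 starts at position 45114172 of chromosome 15 on the minus strand and DUOXA2 at 45114326 on the plus strand, so 153 bases separate the starts of transcripts that run in opposite directions. This stretch, chr15:45114173-45114325, is given on the plus strand, 5′ to 3′, with 63.4% G or C; the capitals mark matches to an NF-kB like motif (GGGNNNNNCC on either strand) or a C/EBP like motif (TTNNGNAA on either strand).
DUOX2/DUOXA2: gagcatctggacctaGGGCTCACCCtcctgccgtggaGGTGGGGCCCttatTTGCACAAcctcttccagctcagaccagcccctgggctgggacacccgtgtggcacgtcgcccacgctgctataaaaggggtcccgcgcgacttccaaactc
The stretch held 2 matches to the NF-kB like motif and 1 to the C/EBP like motif, none of which overlap. Such matches are common. Over the 250 bases before the start, 54.4% of 35116 RefSeq promoters held the first and 33.2% the second, so the matches describe the sequence and mark no site.

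DUOX2 had signals of 122 (0 h), 135 (1 h), 99.5 (3 h), 147 (6 h), 187 (24 h) and 166 (48 h). The 24 and 48 h arrays were the highest and the 3 h array the lowest. Its log2 ratio was 0.62 (24 h) and 0.45 (48 h), with probe-set SDs of 0.45 and 0.47, and it was not past 2-fold at any time.

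DUOXA2 had signals of 45.6 (0 h), 28.0 (1 h), 31.1 (3 h), 33.1 (6 h), 35.4 (24 h) and 19.3 (48 h). All coculture arrays were below 0 h, and the 48 h array was close to the floor. DUOXA2 was 2.36-fold lower at 48 h, a log2 ratio of -1.24 with a probe-set SD of 0.60. That call was lost with a pseudocount (-0.80) and against the 1 h array (-0.54). With the floor at 37.5, the 65th percentile, its log2 ratio could go no lower than -0.28, so no call was possible.

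The difference between the log2 ratios to the shared 0 h array, DUOX2 minus DUOXA2, was 0.85 (1 h), 0.26 (3 h), 0.73 (6 h), 0.99 (24 h) and 1.69 (48 h). The combined probe-set SDs were 0.62, 0.75, 0.68, 0.68 and 0.76 in the same order. At 48 h the difference was thus over 2 times its SD, and at 3 h within it. Against the 1 h array the difference was -0.59 (3 h), -0.12 (6 h), 0.13 (24 h) and 0.84 (48 h), so the order of the genes at 3 and 6 h reversed with the baseline. Each gene was read by 1 probe set, so a second probe set could not be compared.

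**Figure D2:**
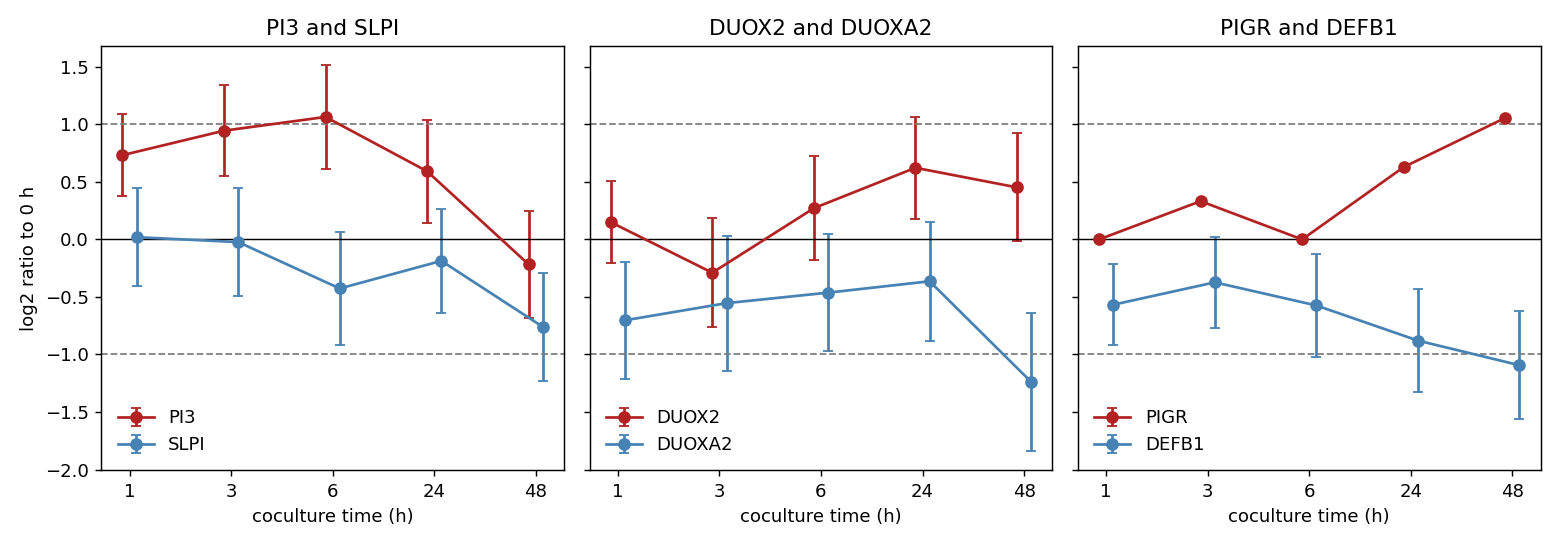
Log2 ratio of signal to 0 h (vertical) at each coculture time in hours (horizontal) for PI3 and SLPI, DUOX2 and DUOXA2, and PIGR and DEFB1, 1 array per time. Bars are the probe-set SD at like signal, PIGR has none because its 0 h array was under the floor (its points are lower bounds, or 0 where both arrays were under it), and dashed lines mark 2-fold; DUOX2 lies above DUOXA2 by 1.69 at 48 h, and all points share the 0 h array (against the 1 h array the 48 h difference was 0.84, and the order at 3 and 6 h reversed).

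NOS2, the inducible nitric oxide synthase, had signals of 17.6 (0 h), 14.8 (1 h), 15.3 (3 h), 7.04 (6 h), 7.19 (24 h) and 14.2 (48 h). Only the 0 h array was above the floor, by 1.08-fold, so no larger difference could be measured. Cytokines are known to induce NOS2 in mouse macrophages and in some human epithelial lines. No coculture array read it above the floor.

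PIGR, the receptor that carries dimeric IgA across the epithelium, had low signals on which its probe sets disagreed. Probe set 226147_s_at, used for the gene in counts, had 10.8 (0 h), 16.0 (1 h), 20.4 (3 h), 13.2 (6 h), 25.1 (24 h) and 33.7 (48 h). The 3, 24 and 48 h arrays were above the floor and the other 3 under it. Against the floor, PIGR was at least 1.26-fold higher at 3 h, at least 1.55-fold at 24 h and at least 2.08-fold at 48 h. The other probe set, 204213_at, had 1.72, 2.54, 18.8, 5.69, 10.2 and 4.53 at the same times and was above the floor at 3 h alone. The disagreement was at 24 and 48 h. The call at 48 h was lost with the median over both probe sets (log2 ratio 0.53), on 204213_at alone (0) and with a pseudocount (0.89). A floor at the 65th percentile, 37.5, lay above all its signals, so no call was possible (0).

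The 250 bases before the RefSeq start (GRCh38.p14, each on the strand of its gene, 5′ to 3′, capitals as above) are shown for PIGR, at chr1:206946467-206946716 on the minus strand, and for LCN2, at chr9:128149203-128149452 on the plus strand, as the gene called higher at 48 h on 226147_s_at alone and the known NF-kB target that stayed under the floor.
PIGR: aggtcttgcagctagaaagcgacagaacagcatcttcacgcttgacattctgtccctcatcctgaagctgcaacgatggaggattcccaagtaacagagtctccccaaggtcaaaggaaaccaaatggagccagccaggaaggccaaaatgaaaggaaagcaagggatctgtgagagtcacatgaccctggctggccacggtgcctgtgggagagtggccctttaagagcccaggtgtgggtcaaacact
LCN2: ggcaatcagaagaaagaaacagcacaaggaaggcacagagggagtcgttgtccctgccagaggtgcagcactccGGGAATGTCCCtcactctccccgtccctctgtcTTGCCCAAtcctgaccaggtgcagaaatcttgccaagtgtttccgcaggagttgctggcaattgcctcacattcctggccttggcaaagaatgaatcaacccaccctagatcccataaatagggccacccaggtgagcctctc
The LCN2 stretch held 2 overlapping matches to the NF-kB like motif, GGGAATGTCC and GGAATGTCCC, beginning 176 and 175 bases before the start, and 1 match to the C/EBP like motif. The PIGR stretch held no match to either set of letters. Stretches before the start were searched for 4 of the 10 genes: LCN2, DUOX2, DUOXA2 and PIGR. The other genes were not searched, and DEFB1 was excluded by a setting.

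SAA1 and SAA2 encode serum amyloid A proteins, acute phase apolipoproteins made by liver and by inflamed epithelia. Their coding sequences are nearly identical, and the 2 probe sets annotated to both cannot separate them, so their signals belong to neither gene. Probe set 208607_s_at, which also carries the read-through SAA2-SAA4, had signals of 1.09 to 6.98 at the coculture times, against 11.8 at 0 h, all under the floor. Probe set 214456_x_at was above the floor at 6 h alone, with 17.1, and had 2.80 at 0 h.

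Across the 7 measured genes, few passed 2-fold. None was higher or lower at 1, 3 or 24 h, 1 was higher at 6 h (PI3), and at 48 h 1 was higher (PIGR) and 2 were lower (DUOXA2 and DEFB1). Among all measured genes, 1.90% were higher and 1.44% lower at 1 h, 3.10% and 3.52% at 3 h, 4.23% and 6.45% at 6 h, 3.95% and 6.14% at 24 h, and 3.82% and 6.14% at 48 h. With 7 genes, shares of this size are less than 1 gene in each direction, so counts of 0 to 2 are too small to set the group apart. The median log2 ratio of the 7 was 0.00 at 1 h, -0.11 at 3, 6 and 24 h and -0.22 at 48 h, while that of all measured genes was 0.00, -0.02, -0.04, 0.00 and -0.01 in the order of the times. The median of the 7 was set by the floor at 1 to 24 h. At 1 h it was the value of PIGR, under the floor on both arrays. At 3, 6 and 24 h it was that of NOS2, whose coculture arrays were all under the floor. At 48 h it was that of PI3, above the floor on both arrays. At 48 h the log2 ratios of the 7 ran from -1.24 for DUOXA2 to 1.06 for PIGR, so the genes did not share a direction.

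**Figure D3:**
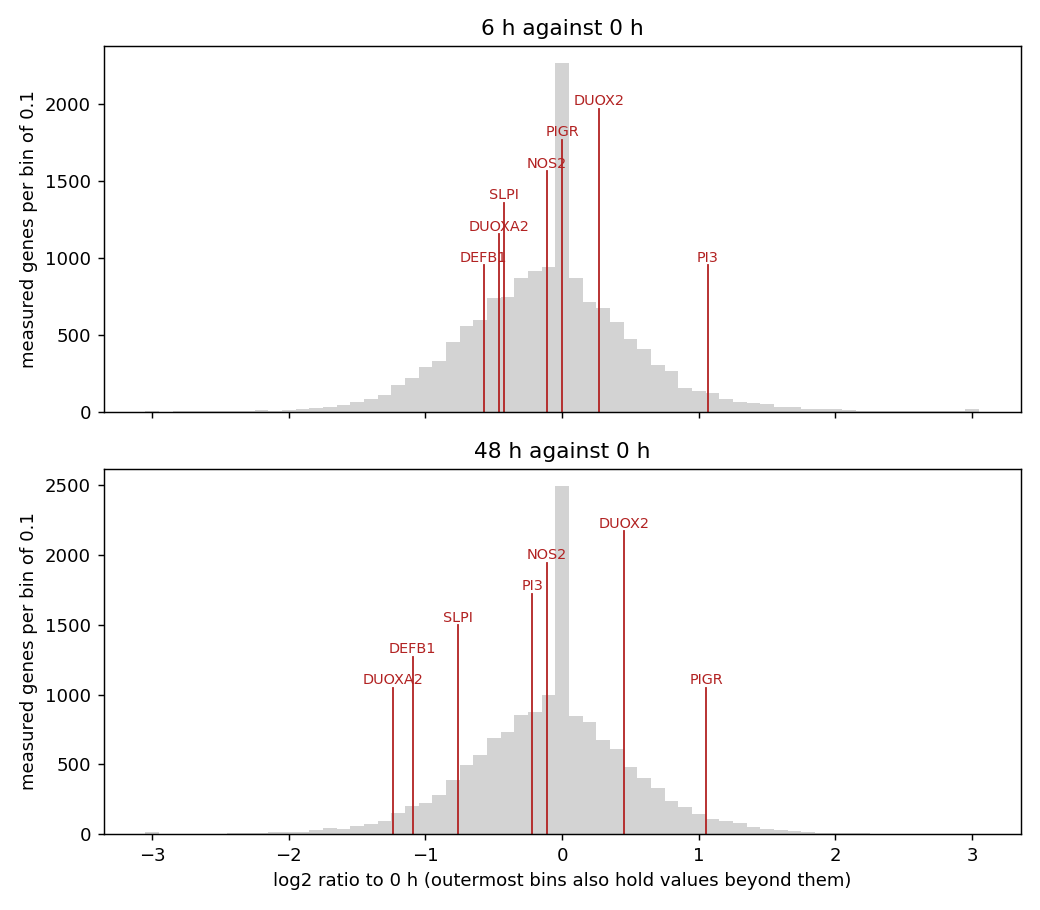
Number of measured genes (vertical) per bin of log2 ratio to 0 h (horizontal) at 6 h and at 48 h, with red lines at the values of the 7 measured defence genes, whose heights carry no value. PI3 at 6 h (1.06), and PIGR (1.06), DEFB1 (-1.09) and DUOXA2 (-1.24) at 48 h lie towards the edges, and the tall central bar holds the genes whose ratio was near 0, among them those under the floor on both arrays.

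Other genes of the same functions were read by the same rule, in lists chosen for their roles but with earlier results of these data known. Of all measured genes, 1.44 to 6.45% passed this rule in a given direction at a given time. Of 12 measured antimicrobial peptide and lectin genes, 1 was lower at 3 h, 1 higher and 1 lower at 6 h, 2 lower at 24 h and 1 lower at 48 h. LEAP2, first described as a liver-expressed antimicrobial peptide, had signals of 1003 (0 h), 601 (1 h), 430 (3 h), 338 (6 h), 301 (24 h) and 226 (48 h). It was lower on each array than on the one before, and 4.44-fold lower at 48 h. HAMP, the iron hormone hepcidin, was the gene higher at 6 h, with a signal of 36.6, against 17.0 at 0 h, which was close to the floor. LYZ, lysozyme, had log2 ratios of 0.57 (24 h) and 0.74 (48 h), and the defensin DEFA6, LTF (lactoferrin) and REG3A, a bactericidal lectin, were under the floor on all arrays.

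Of 13 measured antiprotease genes, 1 was higher and 1 lower at 1 h, 1 lower at 3 and 6 h, and 2 lower at 24 and 48 h. CST3, cystatin C, an inhibitor of cysteine proteases, was 2.07-fold lower at 24 h, and by 48 h 2.54-fold. WFDC2, a relative of SLPI and elafin, was above the floor at 0 h alone (38.9). Among 5 measured genes of S100 proteins and peptidoglycan recognition, S100A9, a subunit of calprotectin, was at least 2.08-fold lower at 1 to 24 h. Its signal was under the floor on these arrays, against 33.7 at 0 h, and was 19.6 at 48 h. S100A8, the partner of S100A9, was under the floor on all arrays.

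Of 14 measured genes of NADPH oxidases and nitric oxide, 1 was higher at each of 3, 6, 24 and 48 h and 1, 0, 1, 2 and 1 were lower at 1, 3, 6, 24 and 48 h. GPX2, the gut glutathione peroxidase that removes hydrogen peroxide, was 3.25-fold higher at 24 h, and by 48 h still 2.54-fold. GCH1, which makes the tetrahydrobiopterin cofactor of nitric oxide synthases, was higher at 3 h, with a log2 ratio of 1.04. DUOX1 was under the floor on all arrays. Among 4 measured genes of immunoglobulin transport and B cell factors, FCGRT, the neonatal Fc receptor that carries IgG, was 3.36-fold lower at 24 h, and by 48 h 2.58-fold, while TGFB1, a cytokine of IgA class switching, had log2 ratios of 1.45 (6 h) and 1.17 (24 h).

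Genes of acute phase and iron proteins were lower late: of 12 measured, 0, 0, 1, 6 and 7 were lower at 1, 3, 6, 24 and 48 h and none was higher. Of all measured genes, 6.14% were lower at 24 h and 6.14% at 48 h. Their median log2 ratio was -1.04 (24 h) and -1.26 (48 h), against 0.00 and -0.01 over all measured genes. Those lower at 48 h were ORM1, HPX, CP, TF, FGA, FGB and FGG, which are liver-type plasma proteins.

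Factors and receptors through which such defence genes are known to be induced gave the following counts, for which no difference from the defence genes was tested. Of 17 measured transcriptional regulators, 6, 5, 6, 3 and 1 were higher at 1, 3, 6, 24 and 48 h, and 1 was lower at 1 h. The shares of all measured genes that were higher were 1.90, 3.10, 4.23, 3.95 and 3.82% at these times, and 1.44% were lower at 1 h. RELB, an NF-kB subunit, had a signal of 129 at 3 h, against 17.1 at 0 h, which was close to the floor. NFKBIZ, a nuclear cofactor of NF-kB that LCN2 induction needs in mice, was 2.03-fold higher at 1 h, with a maximum of 2.27-fold at 3 h. ELF3, an epithelial ETS factor, was 4.92-fold higher at 1 h, and later, at 6 h, 3.05-fold. TRAF3IP2, the adaptor of the IL-17 receptor, was the gene lower at 1 h, with a log2 ratio of -1.14. Of 16 measured cytokine receptor genes, 1, 6, 6, 1 and 0 were higher at the 5 times and none was lower; the 6 at 3 and at 6 h were TNFRSF1A, TNFRSF1B, IFNGR1, IFNGR2, IL6R and IL4R. IL17RA, IL17RC and IL22RA1, receptor chains of IL-17 and IL-22, had log2 ratios of 0.57, 0.84 and 0.71 at 6 h, none past 2-fold.

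**Figure D4:**
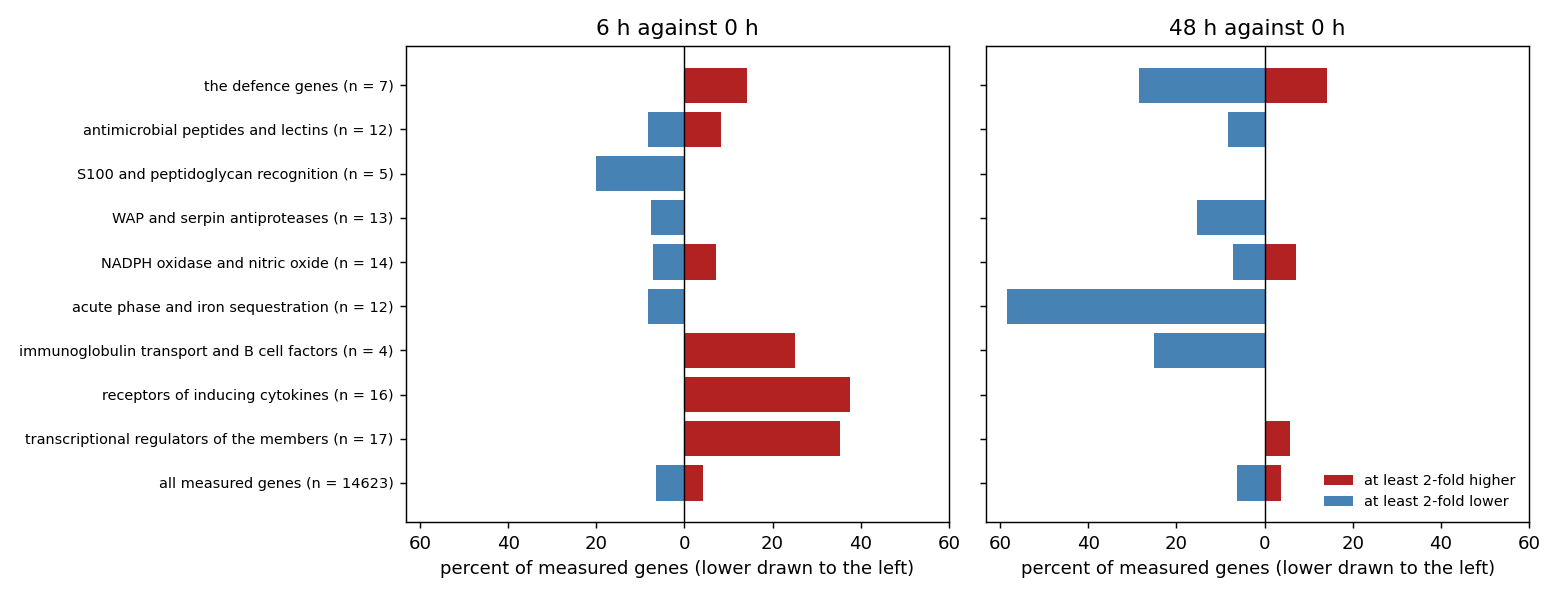
Percent of the measured genes of each list at least 2-fold higher (red, to the right) or lower (blue, to the left) than at 0 h, at 6 h and at 48 h, with the number measured beside each list and all measured genes at the bottom. Receptors and transcriptional regulators (6 of 16 and 6 of 17) stand to the right at 6 h, and acute phase and iron genes (7 of 12 lower) to the left at 48 h. The defence genes hold 1 higher and 0 lower at 6 h, and 1 higher and 2 lower at 48 h.

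The genes whose time course was most like that of each gene past 2-fold were found by the root mean square difference in log2 ratio to 0 h over the 5 coculture times, among the 8067 measured genes with a signal of at least 100 on some array. For PI3 these were CRYBG2 (0.11), C3orf52 (0.12) and TFE3 (0.13), and 41 genes were within 0.25. For DUOXA2 they were KLHDC4 (0.14), SP5 (0.14) and LYSMD2 (0.15), with 38 genes within 0.25. For DEFB1 they were UPRT (0.08), CATSPERZ (0.09) and SIAE (0.10), with 197 within 0.25. For PIGR, whose course includes times at the floor, they were TAF3 (0.10), UBXN2A (0.11) and C9orf78 (0.12), with 142 within 0.25. None of these 12 genes belongs to the 10 defence genes, of which only PI3, DUOX2 and DEFB1 reached a signal of 100 and could be found. Their absence is thus largely set by that limit. A like course over 5 arrays that share a baseline is a description of these arrays only.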

How the data were processed

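Caco-2 RNA (4 µg, made into biotin-labelled cRNA, per the labels' protocols) was hybridised to 6 arrays. Per the submitters' processing notes the authors used MAS5, so the deposited column of each array holds linear intensities, 1 per probe set. The MAS5 version is not given in the sources used here, nor are detection calls. The equal 2% trimmed means show that the arrays were already scaled, so no further scaling was applied.

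Of 54675 probe sets, 41091 other than manufacturer's controls carried 1 gene symbol. Symbols were updated through a RefSeq gene table of GRCh38.p14, in which 41037 were found. Each gene was represented by its probe set of highest mean log2 intensity, values under the floor (the 50th percentile, 16.2) were set to it, and ratios to 0 h were taken on the log2 scale; a fold is a lower bound where the dimmer array was at the floor. With 1 array per time, the number of arrays limits the precision. Probe-set SDs are the median absolute deviation, scaled to a normal SD, of the difference in log2 ratio between pairs of probe sets of a gene, divided by the square root of 2, for pairs with both arrays above the floor and the brighter in the same band of signal; they also hold real differences between transcripts.

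All members are named; of each list the text could name up to 4 genes with the largest changes past 2-fold, and for each member past 2-fold the 3 genes most like it. The macrophage markers with stated levels (PTPRC, SPI1, MRC1, CD14, ITGAM, LAPTM5, AIF1 and LYZ), DEFA6, LTF, REG3A, S100A8, DUOX1, GCH1, NFKBIZ, TRAF3IP2, IL17RA, IL17RC, IL22RA1 and the full sets of called receptor and acute phase genes were named outside this rule, after their values were seen. The members and lists were chosen with earlier results of these data known. Calculations used Python 3.11.15, numpy 2.4.6 and pandas 2.3.3.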

Additional observations from a re-analysis of the deposited data

How the results depend on the processing

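Of 307 log2 ratios of single defence genes under 8 alternatives, 290 stayed on their side of 2-fold and 17 did not. Of the 290, 221 kept their sign, 40 were 0 in both, 24 were 0 in one of the pair, and 5 changed sign. Those 5 were all against the 1 h array: DUOXA2 at 3, 6 and 24 h (0.15, 0.24 and 0.34), DEFB1 at 3 h (0.19) and PI3 at 24 h (-0.14). No ratio past 2-fold changed sign. Quantile normalization and a common median changed no count. With the floor at the 30th percentile, 1 gene was lower at 6 h and 1 at 24 h (NOS2 both times), and 2 were higher at 24 h and 2 at 48 h (LCN2 and PIGR). With the floor at the 65th percentile, 0 were higher and 1 was lower at 48 h (DEFB1). With the pseudocount, 0 were higher at 6 h, and 0 higher and 0 lower at 48 h. By its construction it shrinks ratios with both arrays above the floor, as for PI3, DUOXA2 and DEFB1. Where an array was under the floor it could also enlarge them, as for LCN2 at 48 h (0.59, against 0). With the median over probe sets 1 was higher at 3 h (PI3) and 0 at 48 h, and without probe sets ending in _x_at or _s_at 0 were higher at 48 h. Against the 1 h array 0 were higher at 6 h and 0 lower at 48 h. At 1.5-fold, 1 was higher at 1 h (PI3), 1 at 3 h (PI3) and 3 at 24 h (PI3, DUOX2 and PIGR), and 1 was lower at 1 h (DUOXA2), 1 at 24 h (DEFB1) and 3 at 48 h (SLPI, DUOXA2 and DEFB1). At 3-fold, 0 were higher at 6 h, and 0 higher and 0 lower at 48 h. Each 2-fold call among these genes was thus lost under at least 1 alternative other than the 3-fold size. With the floor at the 65th percentile, 37.5, PIGR (33.7 at most) was under it on every array. DUOXA2, with 45.6 at 0 h, could not be 2-fold lower there. For PIGR at 48 h, 204213_at gave 0, which was the value without _s_at probe sets and brought the median under 2-fold. Apart from these losses, the pseudocount for PI3, DUOXA2 and DEFB1, and the change of size, the cause was not tested. Signal over background limits LCN2, NOS2, PIGR and the SAA probe sets most. No paired analysis was possible because each time has 1 array.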
